A study of Mus musculus with 12 samples.

Results

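Translation initiation and elongation factors are the proteins that bring ribosomes to mRNAs, start protein synthesis and move the ribosome along. Their genes were chosen by name from a table of expression values: all protein-coding genes whose symbol starts with Eif1 to Eif6, Eef1 or Eef2. The rule gave 62 of the 12584 genes in the table, and it used no measured value. The pattern also takes in regulators (4 eIF2 kinases, Eef2k, the eIF4E-binding proteins), 4 methyltransferases of elongation factors and 4 other genes with a matching symbol. Of the 62, 61 passed the filter on low values (at least 1 FPKM in at least 3 libraries). Eef1a2, the eEF1A copy known from muscle and neurons, did not pass: it had no more than 15 reads in any library.

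RNA was sequenced from CT26, a mouse colon carcinoma cell line, after 24 h of treatment, with 3 libraries in each of 4 groups. The groups were NP-D@MP, NP-D@M, NP@M and PBS (phosphate-buffered saline). The labels do not spell out the letters; the series title speaks of a nanodrug with an engineered cancer cell membrane, directed at CDKs (cyclin-dependent kinases). NP@M and PBS have no D in their names, NP-D@M adds D to NP@M, and NP-D@MP adds P as well; all cells are of the same line and no genotype or allele differs between the groups. Whether the 3 libraries of a group stem from separate cultures is not stated, so the p-values reflect the spread between these libraries alone, and that spread may be technical.

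Initiation begins when eIF2, carrying GTP and the initiator tRNA, joins eIF1, eIF1A, eIF3 and eIF5 on the small ribosomal subunit, while eIF4E, eIF4G and the helicase eIF4A bind the cap of the mRNA and recruit that subunit. The cell controls these steps at eIF2, whose alpha subunit is phosphorylated by stress kinases and whose GTP is renewed by eIF2B, and at eIF4E, which 4E-binding proteins hold until mTORC1 phosphorylates them. In elongation, eEF1A delivers aminoacyl-tRNAs, the eEF1B subunits recharge it with GTP, and eEF2 moves the ribosome by a codon; mRNAs of elongation factors and ribosomal proteins typically begin with a run of pyrimidines at the cap.

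Because of that pyrimidine run, the sequence around the annotated transcription start is shown for 9 members, from RefSeq (GRCm38.p6), 30 bases before and 30 bases after the start, coding strand, 5′ to 3′. Capitals mark a run that begins with C, continues with at least 5 bases that are each C or T, and starts within 5 bases of the annotated start. The first 6 members had higher FPKM in the libraries with D and hold such a run, Eif2b2 was lower and holds one, and Eif3a and Eif4e2 were lower and hold none; they were chosen with these results known.
Eef1a1, chr9:78481695-78481754, minus strand: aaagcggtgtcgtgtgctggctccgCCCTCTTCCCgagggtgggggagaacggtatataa
Eif2s3x, chrX:94212622-94212681, minus strand: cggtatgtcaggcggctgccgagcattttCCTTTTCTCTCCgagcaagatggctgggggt
Eif2b5, chr16:20498787-20498846, plus strand: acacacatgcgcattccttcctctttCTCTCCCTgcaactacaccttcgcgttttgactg
Eif3f, chr7:108934385-108934444, plus strand: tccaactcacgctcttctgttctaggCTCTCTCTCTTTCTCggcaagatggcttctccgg
Eif3l, chr15:79075193-79075252, plus strand: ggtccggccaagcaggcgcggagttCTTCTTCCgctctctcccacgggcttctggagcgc
Eif4g1, chr16:20672697-20672756, plus strand: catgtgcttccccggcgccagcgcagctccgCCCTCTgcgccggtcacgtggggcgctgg
Eif2b2, chr12:85219451-85219510, plus strand: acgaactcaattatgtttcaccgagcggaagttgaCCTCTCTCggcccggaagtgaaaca
Eif3a, chr19:60790664-60790723, minus strand: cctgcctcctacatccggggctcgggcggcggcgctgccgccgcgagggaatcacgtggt
Eif4e2, chr1:87213881-87213940, plus strand: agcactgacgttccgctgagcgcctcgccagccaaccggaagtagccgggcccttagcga
Windows of 250 bases before to 50 after the start were found for 50 of the 62 members. The run stood in 8 of these (16%), against 11.9% of 27025 genes with a window. No member that rose without the run is shown above. Among these were the elongation factor genes Eef2 and Eef1b2, which rose on the authors' scale and have windows without it. The members with it were Eef1a1, Eif2s3x, Eif2b5, Eif3f, Eif3l and Eif4g1, which rose with D on the authors' scale, and Eif2b2 and Eif2ak4, which fell; 21 of the 50 rose and 25 fell (NP-D@M against NP@M). After scaling to the reads in the table, 2 of the 8 were called higher (Eef1a1 and Eif3f) and 4 lower (Eif3l, Eif4g1, Eif2b2 and Eif2ak4). With quantile normalization 2 were called higher (Eif2s3x and Eif2b5) and 4 lower (Eef1a1, Eif3l, Eif4g1 and Eif2b2). Of all genes tested, 17.5% were called higher and 70.5% lower after the first scaling, and 37.7% and 41.8% with quantile normalization. In the Eef1a1 line the letters tatataa follow the annotated start, so the start used by RefSeq need not be where transcripts begin in these cells; this was not tested.

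Values are FPKM (fragments per kilobase of gene and per mega-fragment), a level per gene length. In all libraries, 100% of the values were whole multiples of what 1 read is worth, so whole reads were recovered: between 12.8 and 15.7 M reads (M, mega) per library. The divisor that the authors had used for depth was 0.533 to 0.565 times those reads in the 6 libraries with D (7.13 to 8.4 M reads) and 1.95 to 2.02 times in the 6 without D (28.2 to 31.1 M reads). Dividing by the reads in the table instead, called the table-read scale below, moved the median log2 change of all genes by -1.26 for NP-D@M against NP@M and by -1.29 for NP-D@MP against PBS, to -1.46 in both. Changes are therefore given on the authors' scale with the value on the table-read scale beside them, to be read against that median. Because 1 is added to FPKM before the log, the shift was larger for high genes than for low ones, so the median is a rough guide. With NP-D@M against NP@M, Eef1a1 went from 2.29 to 0.46 and Eif2ak3 from -1.58 to -2.39. Ratios of genes within a library, which dividing a library by a constant cannot move, are given as well. Libraries with D also had more mitochondrial reads (7.41 to 14.4%, against 3.3 to 4.2% without D) and more reads of 79 ribosomal protein genes (12.8 to 15.1%, against 5.58 to 6.36%). Of the markers, 2 of 6 colon epithelium genes were in the table (summed at 73.0 to 91.1 FPKM with D and 15.1 to 18.7 FPKM without D; Epcam, Cdx2, Vil1 and Krt8 were not analysed here). These went opposite ways: Krt20 averaged 80.4 FPKM with NP-D@MP and 78.0 FPKM with NP-D@M, against 8.67 FPKM with NP@M and 9.27 FPKM with PBS, and Krt18 4.19 and 4.46 FPKM with these groups with D, against 6.89 and 8.16 FPKM without. The 4 fibroblast markers of 5 summed to 10.2 to 15 FPKM with D and 64.7 to 78.4 FPKM without D, nearly all of it Col1a1 and Col1a2. Dcn went the other way, with 0.264 FPKM with NP-D@MP and 0.355 FPKM with NP-D@M, against 0.0544 FPKM with NP@M and 0.0364 FPKM with PBS. The 3 leukocyte markers of 5 summed to 9.31 to 21.3 FPKM with D and 2.57 to 3.25 FPKM without D, nearly all of it Cd68 and Lyz2. Ptprc, the defining one, averaged 0.0147 FPKM with NP-D@MP and 0.0226 FPKM with NP-D@M and was at 0 in all libraries without D. The 1 endothelial marker of 3 reached at most 0.191 FPKM, and no retina marker of 5 was in the table, although the extraction protocol in the labels speaks of retinas. All of this moved with D; its part in the results below was not tested, and in bulk RNA fewer cells and less RNA per cell cannot be told apart.

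The members together held 4.05 ± 0.0513% of the reads with NP-D@MP and 4.02 ± 0.133% with NP-D@M, against 3.58 ± 0.0618% with NP@M and 3.54 ± 0.0648% with PBS (mean ± SD, n = 3 libraries each, as are all such values below). The 6 libraries with D ranged from 3.88 to 4.14% and the 6 without from 3.47 to 3.62%, with no overlap. Eef1a1, which delivers aminoacyl-tRNAs, was the most abundant member in every group and Eef2 the next. Eef1a1 alone took 45.6 ± 0.866% of the members' reads with NP-D@MP and 47.5 ± 2.75% with NP-D@M, against 38.8 ± 0.176% with NP@M and 36.1 ± 0.402% with PBS. Below these, the order of the levels differed between the groups. Eif5a was the third with NP-D@MP and NP-D@M, against rank 7 with NP@M and rank 5 with PBS. Eif1 was at rank 7 in both groups with D, against rank 3 in both without. Eif4a1, the main cap-complex helicase, was at rank 19 with NP-D@MP and 18 with NP-D@M, against rank 9 in both groups without D, and Eif3a at rank 33 in both groups with D, against rank 11 in both without. Over all 62 members, pairs of libraries with D correlated at r = 0.992 to 0.998 and pairs without D at 0.987 to 0.998, while mixed pairs gave 0.878 to 0.906; these are descriptions across genes, which are not independent. The third NP-D@M library stood with the NP-D@MP libraries (r = 0.997 to 0.998) more than with its own group (r = 0.993 to 0.994).

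**Figure D1:**
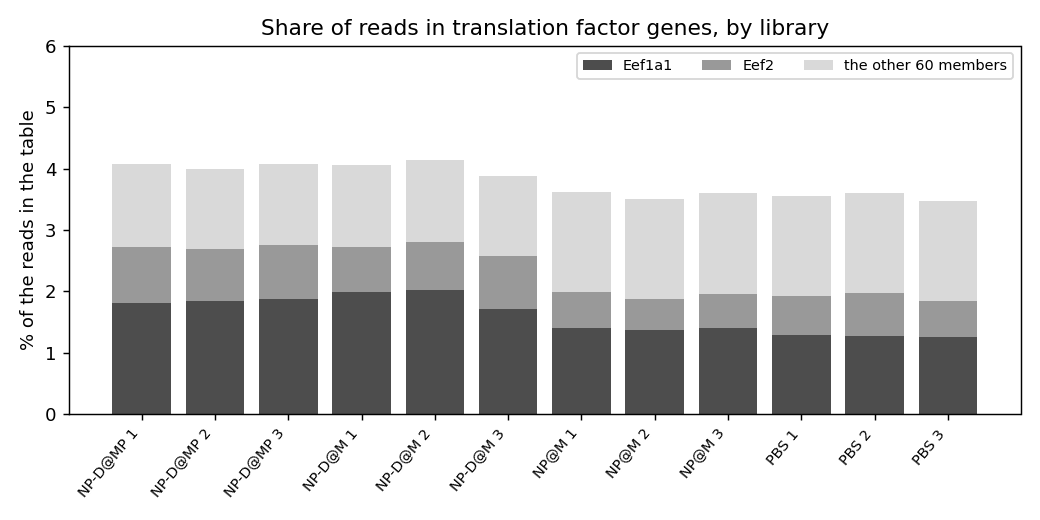
Stacked bars give the percentage of the reads in the table (vertical axis) that fell in Eef1a1, Eef2 and the other 60 members, for each of the 12 libraries from NP-D@MP to PBS. The bars of the 6 libraries with D reach 3.88 to 4.14% and those of the 6 without D 3.47 to 3.62%.

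With NP-D@M, 27 members rose and 29 fell relative to NP@M, and 5 were not called (limma on all 12 libraries, Benjamini-Hochberg adjusted over 10101 genes, called under 0.05). Of the tested members, 44.3% rose and 47.5% fell, and of all genes tested 41.8% and 47.7% (89.5% in either direction), so on the authors' scale the members' counts were close to the background. The values did not overlap between the groups for 56 of 61 members, against 87.3% of all genes. The median log2 change was -0.26 over the tested members and -0.19 over all genes. With NP-D@MP, 28 members rose (45.9%) and 30 fell (49.2%) relative to PBS (background 43.2% and 47.3%, 90.5% in either direction), and 59 did not overlap (96.7%, background 93%). The median log2 change was -0.20 over the tested members and -0.16 over all genes. The calls depended on the scale. On the table-read scale, 11 members rose (18.0%) and 44 fell (72.1%) with NP-D@M (background 17.5% and 70.5%). With NP-D@MP, 11 rose (18.0%) and 43 fell (70.5%) on that scale (background 17.5% and 70.7%). Of the 27 rises with NP-D@M, 11 were still called higher on that scale and 12 changed sign, 10 of them called lower; all 29 falls stayed called. With NP-D@MP, 11 of the 28 rises were still called higher, 14 changed sign, and all 30 falls stayed called. By construction the table-read scale lowers every gene in the libraries with D relative to those without. Falls that stayed called or became larger on it, here and below, were therefore to be foreseen and are no support for them. With quantile normalization 11 members rose and 42 fell with NP-D@M (background 37.7% and 41.8%) and 11 rose and 43 fell with NP-D@MP (background 38% and 42.3%). On that scale the members' shares were not close to the background, with 18.0% of the members higher and 68.9% lower with NP-D@M. Their median log2 change was -0.82, against -0.10 over all genes. This background is not matched for level: 17 of 61 members had a PBS mean of at least 50 FPKM, against 506 of 10101 genes. At that level 1 member was called higher and 13 lower on this scale (28.5% and 51.4% of those genes). Of 25 members at 10 to 50 FPKM the counts were 4 and 18 (31.7% and 55.1%). Of 19 under 10 FPKM they were 6 and 11 (40.3% and 36.9%). The part of level in the difference was not tested.

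The comparisons of NP-D@M with NP@M and of NP-D@MP with PBS share no library. The same 26 members rose in both (96.3% of 27 and 92.9% of 28), the same 29 fell in both (100% of 29 and 96.7% of 30), and 0 were called in opposite directions. Eef1akmt1 was called in the first only, and Eef1d, Eef2kmt and Eef1akmt4 in the second only; whether their changes differ between the comparisons was not tested. The log2 changes of a member in the 2 comparisons lay a median of 0.13 apart and at most 0.64 (Eef1akmt4).

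**Figure D2:**
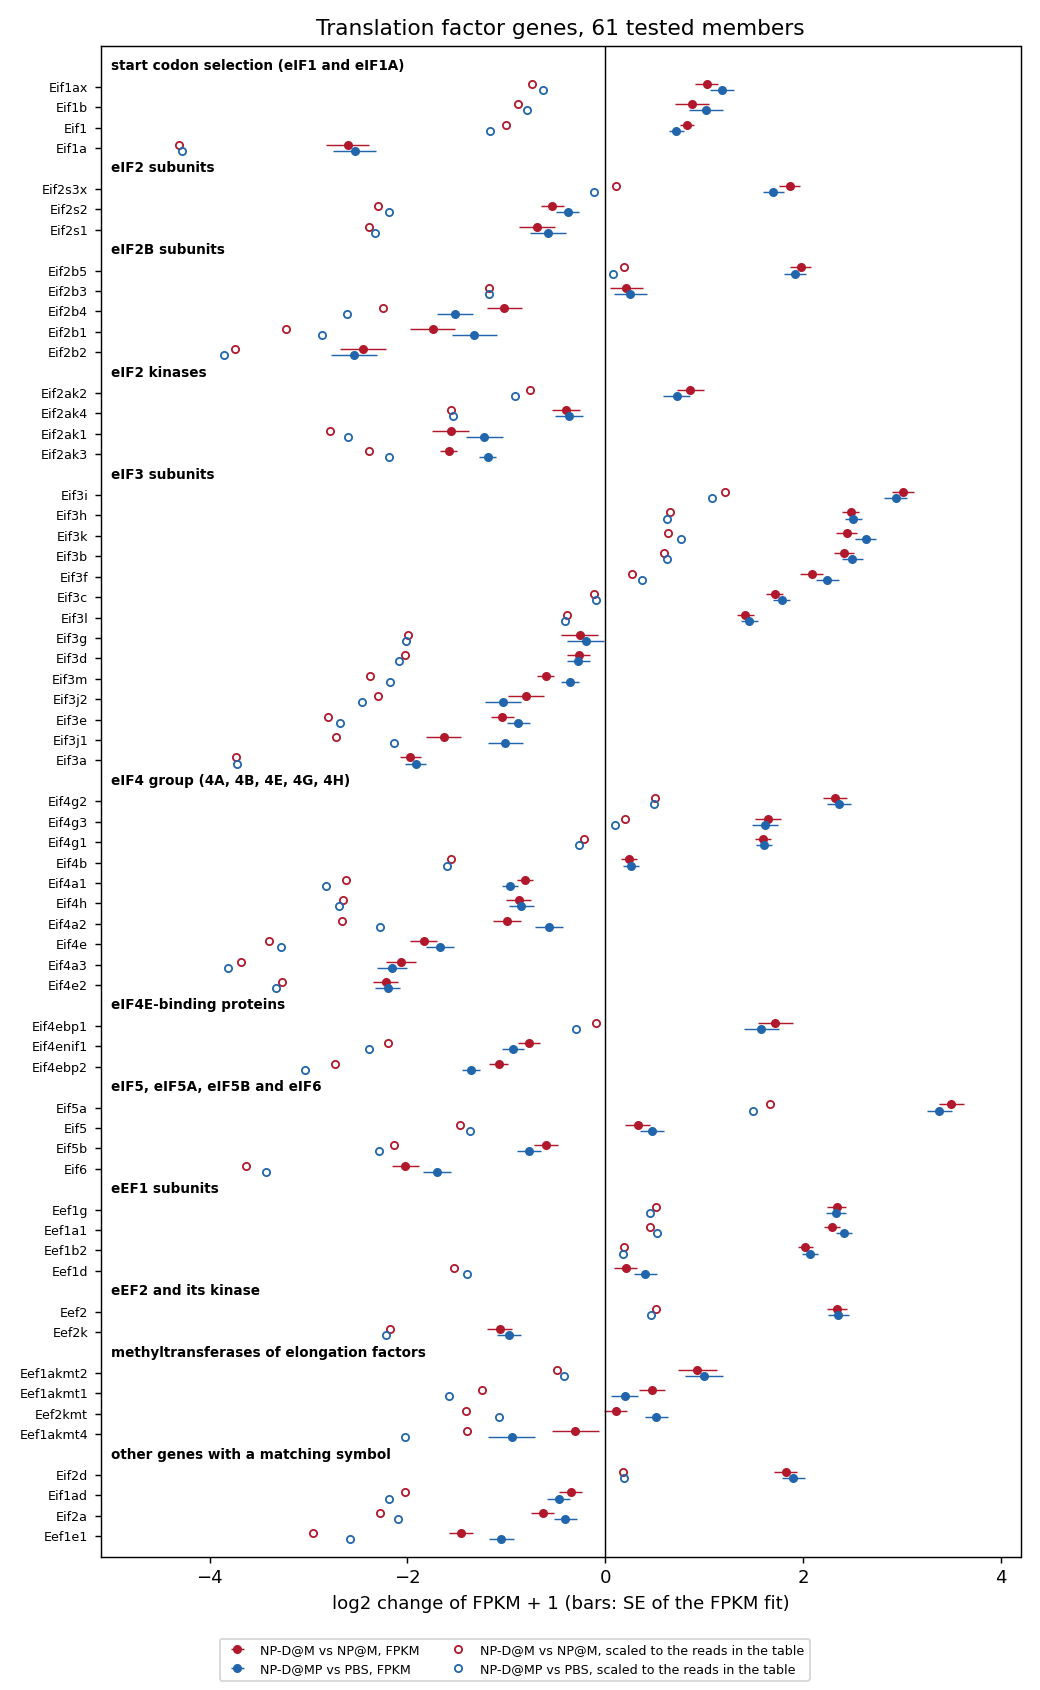
Each row is a tested member, grouped by role, and the horizontal axis is the log2 change of FPKM + 1. Filled points with SE bars are the changes in FPKM for NP-D@M against NP@M (red) and NP-D@MP against PBS (blue), and open points the same after scaling to the reads in the table; members of the same complex lie on both sides of 0, with eIF3 running from -1.97 (Eif3a) to 3.01 (Eif3i) in the first comparison.

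The core elongation factors were among the highest genes and were higher with D on the authors' scale. Of the 4 tested eEF1 subunits, 3 rose and 0 fell with NP-D@M and 4 rose with NP-D@MP. Eef1a1 had 13626, 13872 and 14111 FPKM with NP-D@MP and 14219, 14415 and 12563 FPKM with NP-D@M, against 2803, 2793 and 2796 FPKM with NP@M and 2641, 2636 and 2501 FPKM with PBS. The libraries with D were all above those without, and the third NP-D@M library was the lowest of those with D. Its log2 change was 2.29 (SE 0.0809, adjusted p = 2.64e-10) with NP-D@M against NP@M and 2.42 (SE 0.0809, adjusted p = 1.81e-10) with NP-D@MP against PBS; on the table-read scale it was 0.46 and 0.53, still called higher, but -0.99 and -0.92 with quantile normalization. Of the 50-base words in its transcripts, 40.4% also occur in other genes, mostly pseudogenes, so its level carries that uncertainty, as does that of Eef1g below (44.2%, mostly 1 pseudogene) and, to a lesser extent, those of Eif1 (19.2%), Eif3m (18.4%) and Eif5b (14.3%), which share words with other genes. Eef1b2, the exchange factor that reloads eEF1A with GTP, had 986, 879 and 914 FPKM with NP-D@MP and 912, 899.8 and 923 FPKM with NP-D@M, against 224, 217 and 228 FPKM with NP@M and 228, 219 and 211 FPKM with PBS. Eef1g, which anchors the exchange complex, had 975, 821 and 902 FPKM with NP-D@MP and 879, 832 and 831 FPKM with NP-D@M, against 170.5, 157 and 172 FPKM with NP@M and 179, 195 and 159.5 FPKM with PBS. Neither overlapped between libraries with and without D; the log2 changes were 2.03 and 2.07 for Eef1b2 and 2.34 and 2.34 for Eef1g, with 0.20 to 0.51 in the first comparison on the table-read scale, and values below 0 with quantile normalization (-0.89 and -0.51). Eef1d, the other exchange factor, was 25.3 ± 2.33 FPKM with NP-D@MP and 19.7 ± 0.863 FPKM with NP-D@M, against 16.9 ± 1.7 FPKM with NP@M and 18.9 ± 2.5 FPKM with PBS. It was called higher only for NP-D@MP against PBS (log2 0.41, adjusted p = 0.0059; 0.21, adjusted p = 0.104 for NP-D@M against NP@M), and called lower on the table-read scale (-1.40 and -1.53).

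Eef2, the translocase, and Eef2k, the kinase that inactivates it, went opposite ways on the authors' and the table-read scale, and both fell with quantile normalization. Eef2 had 5055, 4779 and 4951 FPKM with NP-D@MP and 3925, 4165 and 4658 FPKM with NP-D@M, against 886, 769.9 and 846 FPKM with NP@M and 969, 1059 and 862 FPKM with PBS. Its log2 change was 2.35 (SE 0.104, adjusted p = 1.44e-09) with NP-D@M against NP@M and 2.36 (SE 0.104, adjusted p = 1.37e-09) with NP-D@MP against PBS, 0.51 and 0.47 on the table-read scale, and below 0 with quantile normalization (-0.87 and -0.98). Eef2k had 1.55, 0.926 and 1.27 FPKM with NP-D@MP and 0.611, 0.782 and 1.05 FPKM with NP-D@M, against 2.9, 2.66 and 2.8 FPKM with NP@M and 3.49, 3.7 and 2.99 FPKM with PBS. All 6 libraries with D were below all 6 without, and the log2 change was -1.07 (adjusted p = 6.67e-06) and -0.97 (adjusted p = 1.49e-05), -2.17 and -2.21 on the table-read scale and -0.44 and -0.42 with quantile normalization. Within a library, where dividing by a constant moves nothing but quantile normalization does, the log2 ratio of Eef2 to Eef2k was 12.2 ± 0.346 over the 6 libraries with D and 8.19 ± 0.0517 over the 6 without, a 15.8-fold difference (2-sided exact permutation test of 6 against 6 libraries, p = 0.00216, the smallest this design can give, adjusted p = 0.00325 over 12 pairs). These pairs were chosen with earlier results of these data known.

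Of the 14 eIF3 subunits, 7 rose and 6 fell with NP-D@M (5 and 8 on the table-read scale), and the same counts were found for NP-D@MP against PBS. Their log2 changes spanned 4.98, from Eif3a to Eif3i. Eif3i, a subunit on the mobile b-g-i module, had 209.9, 205 and 203 FPKM with NP-D@MP and 189, 203 and 209 FPKM with NP-D@M, against 26.5, 20.2 and 25.5 FPKM with NP@M and 26, 28.7 and 23.6 FPKM with PBS. All libraries with D were above all those without, and the mean was 8.33-fold higher with NP-D@M than with NP@M and 7.9-fold higher with NP-D@MP than with PBS. The log2 change was 3.01 (SE 0.113, adjusted p = 4.19e-10) with NP-D@M against NP@M and 2.94 (SE 0.113, adjusted p = 4.99e-10) with NP-D@MP against PBS, with 1.21 and 1.08 on the table-read scale and 1.13 and 0.97 with quantile normalization, so its direction held on all 3 scales. Eif3b, the scaffold of that module, had 299.8, 273 and 301 FPKM with NP-D@MP and 231, 233 and 269.6 FPKM with NP-D@M, against 47.3, 43.3 and 44.5 FPKM with NP@M and 49.1, 56.8 and 46.4 FPKM with PBS. Eif3k, at the outer edge of the complex, had 230.0, 219 and 201 FPKM with NP-D@MP and 187, 191 and 202 FPKM with NP-D@M, against 34.3, 33.1 and 37 FPKM with NP@M and 33.9, 38.7 and 29.9 FPKM with PBS. Both were above all libraries without D, by log2 changes of 2.41 and 2.50 for Eif3b and 2.44 and 2.64 for Eif3k. Their changes stayed above 0 on the other scales. With quantile normalization Eif3k was called, but Eif3b was not (0.22, limma adjusted p = 0.0526, and 0.21, adjusted p = 0.0661).

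Eif3h and Eif3f, the subunits with an MPN domain, also rose. Eif3h, the most abundant eIF3 gene, had 1036, 1058 and 1037 FPKM with NP-D@MP and 966, 1053 and 988 FPKM with NP-D@M, against 187, 168 and 179 FPKM with NP@M and 184, 195 and 169 FPKM with PBS; pseudogenes share 20.3% of its words. Eif3f had 288, 224 and 259.7 FPKM with NP-D@MP and 213, 232 and 246 FPKM with NP-D@M, against 53.8, 49.9 and 56.4 FPKM with NP@M and 54, 57.5 and 48.1 FPKM with PBS. Neither overlapped between libraries with and without D; log2 changes were 2.49 and 2.51 for Eif3h and 2.09 and 2.25 for Eif3f, but with quantile normalization they were -0.46 and -0.49 for Eif3h and -0.14 and -0.04 for Eif3f. Eif3c of the core (log2 1.72 and 1.79) and Eif3l, the partner of Eif3k (1.42 and 1.46), rose on the authors' scale and were below 0 on the table-read scale (-0.11 and -0.10, and -0.39 and -0.40).

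Eif3a, the largest subunit and the backbone of the complex, went the other way. It had 14.7, 15.1 and 16.5 FPKM with NP-D@MP and 15.8, 17 and 14.6 FPKM with NP-D@M, against 60.7, 71.8 and 62.2 FPKM with NP@M and 63, 54.5 and 65.6 FPKM with PBS. Every library with D lay below every library without D, and the mean was 4.11-fold lower with NP-D@M than with NP@M and 3.96-fold lower with NP-D@MP than with PBS. The log2 change was -1.97 (SE 0.105, adjusted p = 7.20e-09) with NP-D@M against NP@M and -1.92 (SE 0.105, adjusted p = 8.86e-09) with NP-D@MP against PBS, and it was more negative on the other scales (-3.73 and -3.72 on the table-read scale). Eif3e (-1.04 and -0.88) and Eif3m (-0.60 and -0.36), of the same structural core, and Eif3d (-0.27 and -0.27), which can itself bind the cap, fell as well. An antisense gene shares 37.2% of the words of Eif3d, and no strand setting is given in the sources used here. Eif3g, which binds Eif3i and Eif3b, was 17.8 ± 5.27 FPKM with NP-D@M and 21 ± 3.49 FPKM with NP@M, with overlapping libraries (log2 -0.26, adjusted p = 0.211). The loosely bound Eif3j1 (-1.63 and -1.01) and Eif3j2 (-0.80 and -1.03) fell, but 90.8% of the words of Eif3j2 occur in Eif3j1, so the counts of this pair cannot be told apart.

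The make-up of the eIF3 message pool shifted on a scale that the library size does not touch. Eif3a made up 0.588 ± 0.0385% of the summed eIF3 FPKM with NP-D@MP and 0.64 ± 0.0424% with NP-D@M, against 9.34 ± 0.962% with NP@M and 8.92 ± 1.17% with PBS. Eif3h made up 39.8 ± 1.03% with NP-D@MP and 40.6 ± 0.988% with NP-D@M, against 25.6 ± 1.15% with NP@M and 26.6 ± 0.915% with PBS. For neither gene did the shares of libraries with and without D overlap.

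**Figure D3:**
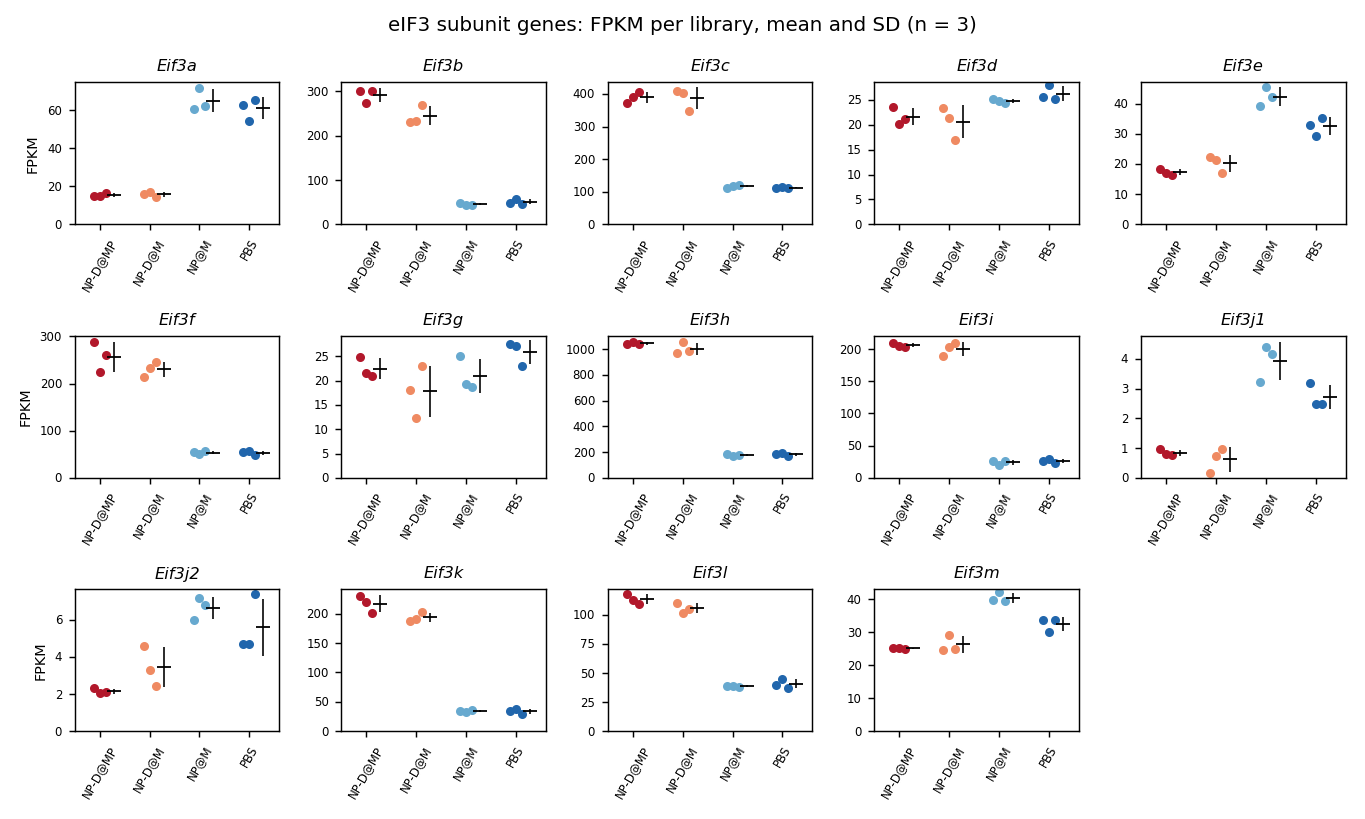
Each panel is an eIF3 subunit gene, with FPKM on the vertical axis (from 0), a point per library and the mean and SD of each group (n = 3), in the order NP-D@MP, NP-D@M, NP@M, PBS. Eif3i and Eif3h are high with D, Eif3a is low with D (15.4 and 15.8 FPKM on average, against 64.9 and 61 FPKM), and Eif3g overlaps.

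Among the 10 eIF4 genes, 4 rose and 6 fell in both comparisons (1 and 8 with NP-D@M on the table-read scale). Those that rose on the authors' scale were the scaffolds and Eif4b; those that fell were the cap-binding proteins, the helicases and Eif4h. Eif4g1, the scaffold that joins eIF4E, eIF4A and eIF3, had 155, 165 and 163 FPKM with NP-D@MP and 143, 141 and 143 FPKM with NP-D@M, against 47.4, 48.3 and 43.5 FPKM with NP@M and 53.9, 53.6 and 49 FPKM with PBS. Eif4g2, a related protein that lacks the eIF4E-binding site, had 282, 316 and 315 FPKM with NP-D@MP and 357, 365 and 278 FPKM with NP-D@M, against 60.1, 69.4 and 65.9 FPKM with NP@M and 58.5, 53.2 and 63.2 FPKM with PBS. Eif4g3, the other full-length scaffold, had 7.87, 9.52 and 8.56 FPKM with NP-D@MP and 6.31, 9.68 and 8.54 FPKM with NP-D@M, against 1.79, 2.1 and 1.82 FPKM with NP@M and 2.18, 2.13 and 2.1 FPKM with PBS. None of the 3 overlapped between libraries with and without D, with log2 changes of 1.60 and 1.61, 2.33 and 2.37, and 1.64 and 1.62. On the table-read scale, Eif4g1 was lower (-0.21 and -0.26), Eif4g2 higher (0.51 and 0.49) and Eif4g3 not called (0.20 and 0.10). With quantile normalization Eif4g1 was lower (-0.47 and -0.57), Eif4g2 was at -0.08 and -0.01, and Eif4g3 was called higher (1.91 and 1.82).

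Eif4e, which binds the cap, had 4.52, 3.91 and 3.52 FPKM with NP-D@MP and 4.54, 4.18 and 2.74 FPKM with NP-D@M, against 15.3, 16.4 and 16.2 FPKM with NP@M and 14.8, 14 and 15.6 FPKM with PBS. Eif4e2, a cap-binding protein that does not bind eIF4G and is known as a repressor, had 0.517, 0.563 and 0.486 FPKM with NP-D@MP and 0.0953, 0.588 and 0.455 FPKM with NP-D@M, against 5.6, 5.34 and 5.06 FPKM with NP@M and 5.63, 5.82 and 6.51 FPKM with PBS. All libraries with D were below all libraries without D for both, and the first NP-D@M library had the lowest Eif4e2 value, from 6 reads. The log2 change was -1.84 (SE 0.139, adjusted p = 1.43e-07) with NP-D@M against NP@M and -1.67 (SE 0.139, adjusted p = 3.33e-07) with NP-D@MP against PBS for Eif4e and -2.22 (SE 0.126, adjusted p = 1.18e-08) with NP-D@M against NP@M and -2.20 (SE 0.126, adjusted p = 1.25e-08) with NP-D@MP against PBS for Eif4e2; the +1 added to FPKM understates the change of so low a gene. Both were more negative on the table-read scale (-3.40 and -3.27 with NP-D@M).

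The helicases fell to different degrees. Eif4a1 had 51.3, 53.1 and 50.6 FPKM with NP-D@MP and 57.2, 60.4 and 53.8 FPKM with NP-D@M, against 103, 103 and 97.5 FPKM with NP@M and 106, 103 and 97.1 FPKM with PBS. Eif4a2 had 9.64, 7.58 and 8.38 FPKM with NP-D@MP and 8.84, 8.08 and 6.41 FPKM with NP-D@M, against 15.1, 18.1 and 16.1 FPKM with NP@M and 11, 13.6 and 15 FPKM with PBS. Eif4a3, which belongs to the exon junction complex, had 5.48, 3.67 and 5.68 FPKM with NP-D@MP and 6.01, 4.48 and 4.31 FPKM with NP-D@M, against 24.9, 22.4 and 23.6 FPKM with NP@M and 25.2, 27.3 and 23.1 FPKM with PBS. Libraries with and without D did not overlap for any of these, and the log2 changes were -0.81 and -0.96 for Eif4a1, -1.0 and -0.57 for Eif4a2 and -2.06 and -2.16 for Eif4a3. Pseudogenes and paralogs share 28.4% of the words of Eif4a1, 13.6% of those of Eif4a2 and 16.5% of those of Eif4a3. Eif4h fell (-0.87 and -0.85), while Eif4b, which like it stimulates eIF4A, rose slightly (0.24 and 0.26) and fell on the table-read scale (-1.56 and -1.59).

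The eIF4E-binding proteins split. Eif4ebp1, the inhibitor that mTORC1 phosphorylates, had 242, 249 and 239 FPKM with NP-D@MP and 173, 151 and 261 FPKM with NP-D@M, against 64, 53.1 and 53.8 FPKM with NP@M and 86, 86.6 and 70.2 FPKM with PBS. Libraries with D were all higher, and within NP-D@M the third library lay above the other two. Eif4ebp2, its paralog, had 6.73, 5.18 and 6.55 FPKM with NP-D@MP and 7.02, 7.46 and 6.99 FPKM with NP-D@M, against 16.5, 16.1 and 16 FPKM with NP@M and 16.6, 17.7 and 17.3 FPKM with PBS. The log2 change was 1.72 (SE 0.177, adjusted p = 2.15e-06) with NP-D@M against NP@M and 1.58 (SE 0.177, adjusted p = 4.52e-06) with NP-D@MP against PBS for Eif4ebp1 and -1.08 (SE 0.0956, adjusted p = 5.92e-07) with NP-D@M against NP@M and -1.36 (SE 0.0956, adjusted p = 7.72e-08) with NP-D@MP against PBS for Eif4ebp2. On the table-read scale Eif4ebp1 did not pass the test (-0.09, adjusted p = 0.602, and -0.30, adjusted p = 0.111). Eif4enif1, which carries eIF4E into the nucleus, fell (-0.77 and -0.93).

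**Figure D4:**
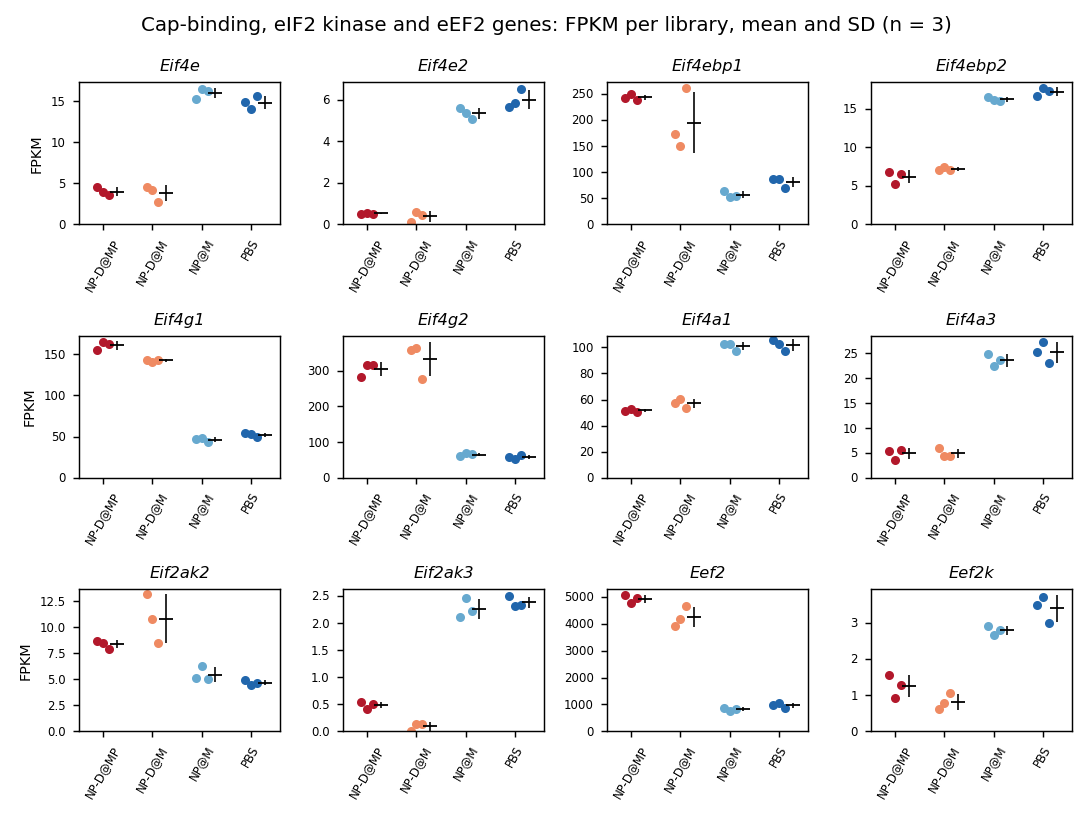
Panels show FPKM (vertical axis, from 0) of cap-complex genes, 4E-binding proteins, eIF2 kinases, Eef2 and Eef2k, with a point per library and the mean and SD per group (n = 3), NP-D@MP leftmost and PBS rightmost. Eif4g1, Eif4g2, Eif4ebp1 and Eef2 are higher with D and Eif4e, Eif4e2, Eif4ebp2 and Eef2k lower; the third NP-D@M library of Eif4ebp1, at 261 FPKM, stands with the NP-D@MP libraries.

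Among the eIF1 and eIF1A genes, which guard start codon choice, 3 rose and 1 fell in both comparisons. Eif1a had 8.13, 6.87 and 9.35 FPKM with NP-D@MP and 6.45, 14.2 and 7.95 FPKM with NP-D@M, against 58.5, 64 and 57.9 FPKM with NP@M and 51.8, 47 and 55.9 FPKM with PBS. Eif1ax, its X-linked counterpart, was 36.3 ± 2.65 FPKM with NP-D@MP and 36 ± 5.18 FPKM with NP-D@M, against 17.1 ± 2.01 FPKM with NP@M and 15.4 ± 0.474 FPKM with PBS. Eif1a was thus the higher of the pair without D and the lower with D. Its log2 change was -2.60 (SE 0.215, adjusted p = 3.13e-07) with NP-D@M against NP@M and -2.53 (SE 0.215, adjusted p = 4.02e-07) with NP-D@MP against PBS, against 1.03 and 1.18 for Eif1ax, which was lower on the table-read scale (-0.74 and -0.63). Eif1 had 444, 439.9 and 460.1 FPKM with NP-D@MP and 495, 463 and 482 FPKM with NP-D@M, against 262, 271 and 277 FPKM with NP@M and 263, 276 and 277 FPKM with PBS. It rose by log2 0.83 and 0.72 on the authors' scale and fell on the other scales (-1.0 and -1.17 on the table-read scale), and Eif1b likewise rose and fell on these scales (0.88 and 1.02; -0.88 and -0.79).

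Of the 3 eIF2 subunits 1 rose and 2 fell. Eif2s1, the alpha subunit that the stress kinases phosphorylate, had 10.7, 13.5 and 9.03 FPKM with NP-D@MP and 8.78, 14.7 and 9.32 FPKM with NP-D@M, against 17.5, 18.8 and 17.1 FPKM with NP@M and 17.4, 15 and 18.4 FPKM with PBS. Libraries with D were lower (log2 -0.69, adjusted p = 0.00369, and -0.58, adjusted p = 0.00974). The beta subunit Eif2s2 fell (-0.53 and -0.38) and the gamma subunit Eif2s3x rose (1.87 and 1.70). Eif2s3x was not called on the table-read scale (0.11 and -0.11) and was called higher with quantile normalization (0.76 and 0.66). Within the complex, Eif2s3x made up 57.7 ± 1.08% of the summed FPKM with NP-D@MP and 61.7 ± 2.21% with NP-D@M, against 21.5 ± 1.24% with NP@M and 22.2 ± 1.24% with PBS. A pseudogene shares 34.6% of its words.

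Of the 5 eIF2B subunits 1 rose and 3 fell. Eif2b5, the catalytic epsilon subunit that exchanges the GDP of eIF2, had 83.9, 69.97 and 78.3 FPKM with NP-D@MP and 72.6, 85 and 73.5 FPKM with NP-D@M, against 17.9, 18.2 and 20.4 FPKM with NP@M and 19.7, 21.4 and 18 FPKM with PBS. Eif2b2, the beta subunit of the regulatory core, had 2.27, 0.56 and 0.818 FPKM with NP-D@MP and 1.39, 1.1 and 0.646 FPKM with NP-D@M, against 10.6, 9.98 and 9.56 FPKM with NP@M and 10.3, 12.4 and 11 FPKM with PBS. The first was above and the second below all libraries without D in every library with D. The log2 change was 1.98 (SE 0.107, adjusted p = 7.99e-09) with NP-D@M against NP@M and 1.92 (SE 0.107, adjusted p = 9.99e-09) with NP-D@MP against PBS for Eif2b5 and -2.45 (SE 0.232, adjusted p = 1.07e-06) with NP-D@M against NP@M and -2.54 (SE 0.232, adjusted p = 7.84e-07) with NP-D@MP against PBS for Eif2b2; on the table-read scale Eif2b5 was not called (0.19, adjusted p = 0.101, and 0.08, adjusted p = 0.476) and Eif2b2 was lower still (-3.74 and -3.85). With quantile normalization Eif2b5 was called higher (0.51 and 0.40). Eif2b1, the alpha subunit (-1.74 and -1.32), and Eif2b4, the delta subunit (-1.02 and -1.51), fell on the authors' scale. The gamma subunit Eif2b3 was not called on it by limma (0.22, adjusted p = 0.225, and 0.26, adjusted p = 0.153). Eif2b5 made up 89.8 ± 1.99% of the complex's summed FPKM with NP-D@MP and 90.02 ± 1.7% with NP-D@M, against 40.7 ± 2.94% with NP@M and 42.1 ± 1.14% with PBS, with no overlap between libraries with and without D.

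The 4 eIF2 kinases were low genes, of which 1 rose and 3 fell. Eif2ak2 (PKR, activated by double-stranded RNA) had 8.71, 8.49 and 7.93 FPKM with NP-D@MP and 13.2, 10.8 and 8.48 FPKM with NP-D@M, against 5.09, 6.27 and 5.02 FPKM with NP@M and 4.92, 4.46 and 4.64 FPKM with PBS. It was the only one higher with D (log2 0.86, adjusted p = 9.14e-05, and 0.72, adjusted p = 3.55e-04), and it was lower on the table-read scale (-0.76 and -0.91) and higher with quantile normalization (0.81 and 0.79). Eif2ak3 (PERK, of the endoplasmic reticulum) had 0.533, 0.416 and 0.512 FPKM with NP-D@MP and 0, 0.137 and 0.141 FPKM with NP-D@M, against 2.11, 2.47 and 2.22 FPKM with NP@M and 2.5, 2.32 and 2.33 FPKM with PBS. These were 24, 19 and 22 reads with NP-D@MP and 0, 6 and 7 reads with NP-D@M, against 390 to 462 reads without D. Its log2 change was -1.58 (SE 0.0875, adjusted p = 9.54e-09) with NP-D@M against NP@M and -1.19 (SE 0.0875, adjusted p = 1.17e-07) with NP-D@MP against PBS. Eif2ak1 (HRI, regulated by heme) had 1.86, 1.3 and 2.25 FPKM with NP-D@MP and 0.441, 1.39 and 1.33 FPKM with NP-D@M, against 5.29, 4.87 and 4.58 FPKM with NP@M and 4.96, 6.08 and 5.45 FPKM with PBS. Eif2ak4 (GCN2, activated by uncharged tRNA) had 1.4, 1.24 and 1.45 FPKM with NP-D@MP and 1.77, 1.57 and 0.882 FPKM with NP-D@M, against 1.83, 2.15 and 2.44 FPKM with NP@M and 2.06, 1.79 and 2.27 FPKM with PBS. Eif2ak1 fell by log2 1.56 and 1.22. Eif2ak4 fell by 0.40 (adjusted p = 0.0193) and 0.36 (adjusted p = 0.0287) but was above 0 with quantile normalization (0.21 and 0.24). Its call for NP-D@M was lost without the third NP-D@M library (-0.23, adjusted p = 0.0726), without the third NP@M library (-0.33, adjusted p = 0.0740) and with only the 6 libraries compared (adjusted p = 0.0635). For NP-D@MP it was lost without the first or second NP-D@MP library or without the first PBS library or the third (adjusted p = 0.0515 to 0.0925) and with voom (0.0573).

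Eif5a had the largest rise of the tested members on the authors' scale in both comparisons. It encodes eIF5A, the hypusine-carrying factor that helps stalled ribosomes form peptide bonds, and lies at chr11:69916714-69921958 (GRCm38, as the table gives it, minus strand). Eif5a had 2150.0, 1967 and 1954 FPKM with NP-D@MP and 1573, 1548 and 2018 FPKM with NP-D@M, against 159.7, 148 and 142 FPKM with NP@M and 203, 214 and 166 FPKM with PBS. Every library with D was several times every library without D, and the third NP-D@M library lay with NP-D@MP. The mean was 11.4-fold higher with NP-D@M than with NP@M and 10.4-fold higher with NP-D@MP than with PBS. Its log2 change was 3.50 (SE 0.128, adjusted p = 3.35e-10) with NP-D@M against NP@M and 3.38 (SE 0.128, adjusted p = 4.29e-10) with NP-D@MP against PBS, and it kept its direction on the table-read scale (1.67 and 1.49) and with quantile normalization (0.52 and 0.34). Eif5a, Eif3i and Eif3k rose in both comparisons on all 3 scales.

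Eif6, which keeps the large ribosomal subunit from joining too early, had 7.47, 7.08 and 7.99 FPKM with NP-D@MP and 3.97, 4.13 and 6.13 FPKM with NP-D@M, against 22.1, 21.9 and 21.8 FPKM with NP@M and 29.1, 28.6 and 22.9 FPKM with PBS. Eif5b, the GTPase of subunit joining, had 3.8, 2.92 and 3.13 FPKM with NP-D@MP and 4.29, 4.55 and 3.82 FPKM with NP-D@M, against 6.5, 7.59 and 6.59 FPKM with NP@M and 6.33, 5.41 and 7.19 FPKM with PBS. Both fell, by log2 -2.02 and -1.70 for Eif6 and -0.60 and -0.77 for Eif5b. Eif5, which triggers GTP hydrolysis on eIF2, had 44.7, 48.7 and 51 FPKM with NP-D@MP and 55.3, 62.5 and 45.3 FPKM with NP-D@M, against 38.8, 46 and 43.7 FPKM with NP@M and 33.5, 31.8 and 37.9 FPKM with PBS. Its NP-D@M and NP@M libraries overlapped (log2 0.33, adjusted p = 0.0272), those of NP-D@MP and PBS did not (0.47, adjusted p = 0.00378), and it was lower on the other scales (-1.47 and -1.37 on the table-read scale). The adjusted p of Eif5 for NP-D@M against NP@M was 0.102 without the first NP@M library, 0.0605 without the first NP-D@M library and 0.108 without the second.

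Of the methyltransferases, Eef1akmt2 rose in both comparisons (0.93 and 1.0; -0.49 and -0.42 on the table-read scale), Eef1akmt1 only with NP-D@M (0.48, adjusted p = 0.00556; 0.20, adjusted p = 0.179 with NP-D@MP). Eef2kmt was called higher with NP-D@MP only (0.52, adjusted p = 0.00144; 0.11, adjusted p = 0.402 with NP-D@M), and Eef1akmt4 lower with NP-D@MP only (-0.95, adjusted p = 0.00294; -0.30, adjusted p = 0.247 with NP-D@M). On the table-read scale, these 4 had log2 changes below 0 in both comparisons, with Eef1akmt2 at adjusted p = 0.0524 (limma) for NP-D@MP against PBS. With quantile normalization Eef1akmt2 (1.32 and 1.39) and Eef2kmt (0.40 and 0.70) were called higher in both comparisons. Eef1akmt1 was called lower on that scale with NP-D@MP (-0.61). Of the other genes with a matching symbol, Eif2d, an initiator tRNA-binding factor of reinitiation and recycling, rose (1.82 and 1.90). It was not called on the table-read scale (0.18 and 0.19) and was called higher with quantile normalization (1.69 and 1.64). Eef1e1, a scaffold of the aminoacyl-tRNA synthetase complex (-1.45 and -1.05), Eif2a, which is not an eIF2 subunit (-0.63 and -0.40), and Eif1ad (-0.35 and -0.47) fell.

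Ratios of related members within a library do not depend on the library size. The 12 pairs were chosen with earlier results of these data known, so their p-values are descriptions. No share over other pairs of genes was computed, and 89.5% of all genes tested were called with NP-D@M against NP@M. Of 12 pairs tested between the 6 libraries with D and the 6 without, 9 had an adjusted p under 0.05 and 8 did not overlap; each of the 8 had the smallest p the design can give (2-sided exact permutation, p = 0.00216, adjusted 0.00325), and within single comparisons 3 against 3 libraries cannot go below 0.1. The log2 ratio of Eif1a to Eif1ax was -2.08 ± 0.533 with D and 1.78 ± 0.105 without D (mean ± SD, n = 6 each), a difference of -3.86. That of Eif4e to its inhibitor Eif4ebp1 was -5.80 ± 0.532 with D and -2.14 ± 0.392 without D, a difference of -3.66. Eif4ebp1 to Eif4ebp2 differed by 3.0, with 5.02 ± 0.456 with D and 2.02 ± 0.27 without D. So Eif4ebp1 gained on both Eif4e and Eif4ebp2 in every library with D. Smaller differences separated Eif4e from Eif4e2 (1.81), Eif4a1 from Eif4a3 (1.42), Eif4g1 from Eif4g2 (-0.74) and Eif4g1 from Eif4g3 (-0.43). Eif3j1 to Eif3j2 differed by -1.17 (exact permutation, adjusted p = 0.0144) with overlapping libraries. With 1 FPKM added in place of 0.5 reads, the calls of Eif4g1/Eif4g3 (-0.03, adjusted p = 0.738) and Eif3j1/Eif3j2 (-0.40, adjusted p = 0.205) were lost by the same exact permutation test. The ratios of Eif4a1 to Eif4a2 (-0.05, adjusted p = 0.764) and of Eif1 to Eif1b (-0.22, adjusted p = 0.166) did not pass the exact permutation test, nor did that of Eef1a1 to Eef1a2 (0.35, adjusted p = 0.764), which rests on few Eef1a2 reads.

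**Figure D5:**
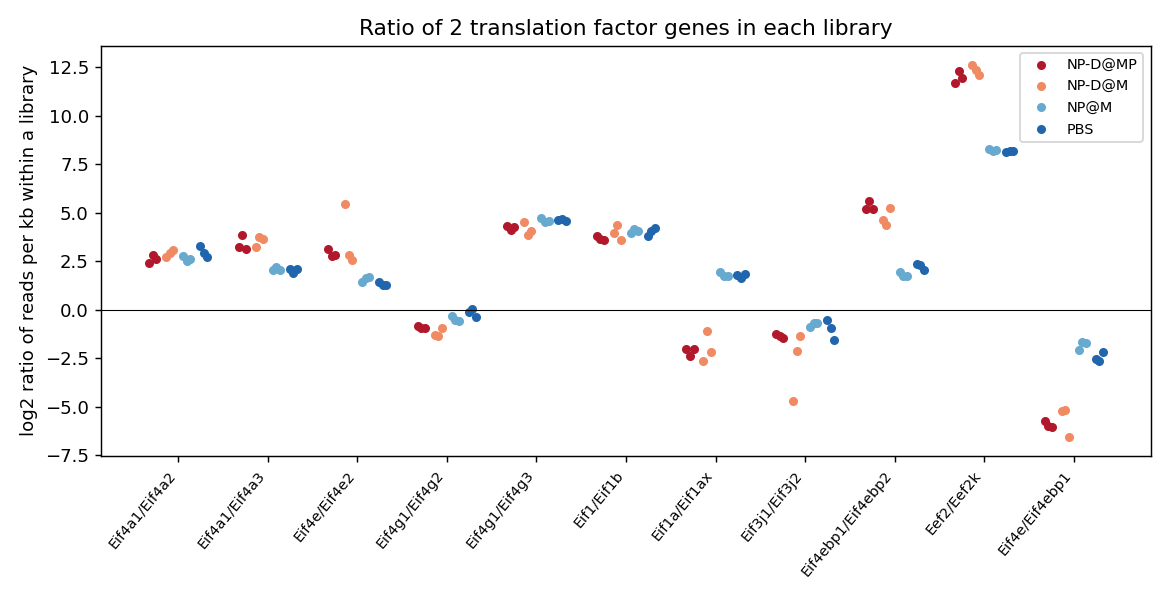
The vertical axis is the log2 ratio of 2 members within a library (reads per kilobase, 0.5 reads added to each gene), with a point per library for 11 of the 12 pairs, coloured by group from NP-D@MP to PBS. For Eef2/Eef2k, Eif4ebp1/Eif4ebp2, Eif1a/Eif1ax and Eif4e/Eif4ebp1 the points with D stand apart from those without D, while Eif4a1/Eif4a2 and Eif1/Eif1b overlap.

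NP-D@MP and NP-D@M were compared to ask what adding P does. With limma, 0 of 61 members were called in either direction (background 0.0396% higher, 0.0099% lower, 0.0495% in either direction). An unadjusted p under 0.05 was found for 13 of 61 members, against 1713 of 10101 genes, and voom on the recovered reads also called 0 members. The groups did not overlap for 14 members (23.0%, background 14.2%). The smallest adjusted p was 0.102, for Eif2ak3 (0.45). Leaving out the third NP-D@M library changed this: 4 of 61 members were then called higher with NP-D@MP (background 9.59%) and 4 of 61 lower (background 2.87%). The higher ones were Eif6 (log2 0.75, adjusted p = 0.00460), Eif4ebp1 (0.59, adjusted p = 0.0169), Eif2ak3 (0.48, adjusted p = 0.0133) and Eif4h (0.45, adjusted p = 0.0230). The lower ones were Eif2s3x (-0.39, adjusted p = 0.0199), Eif2ak2 (-0.47, adjusted p = 0.0292), Eif3j2 (-0.64, adjusted p = 0.0421) and Eif2b4 (-0.69, adjusted p = 0.0287). Eif6 had 7.47, 7.08 and 7.99 FPKM with NP-D@MP and 3.97, 4.13 and 6.13 FPKM with NP-D@M, where the third library lay nearest to NP-D@MP. Mitochondrial reads were 9.06% in that library, against up to 14.4% in the others of its group; the part of this in the difference was not tested.

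NP@M and PBS were compared to ask what the carrier without D does. With limma, 0 members were called (background 0% higher, 0.0099% lower, 0.0099% in either direction). With voom on the recovered reads, 0 members were called as well. The groups did not overlap for 18 members (29.5%), against 28.4% of all genes. The smallest adjusted p was 0.448. Among the members whose groups did not overlap, Eif4ebp1 was 57 ± 6.11 FPKM with NP@M and 81 ± 9.31 FPKM with PBS (log2 -0.50), Eif5a 149.7 ± 9.2 FPKM and 195 ± 25.1 FPKM (-0.37), and Eif3e 42.3 ± 3.2 FPKM and 32.5 ± 3.0 FPKM (0.37).

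Other genes of translation were counted from 6 lists, chosen with earlier results of these data known. The counts are to be read against the shares of all genes with NP-D@M. These were 41.8% higher and 47.7% lower (17.5% and 70.5% on the table-read scale). The genes named below are among the 2 called genes of smallest p in each list, so they do not stand for the list. Of 9 release and recycling genes, 1 rose and 7 fell with NP-D@M (0 and 8 on the table-read scale). Denr, which releases tRNA from recycled subunits, had 1.33 ± 0.269 FPKM with NP-D@M and 6.3 ± 0.753 FPKM with NP@M. Of 6 genes of poly(A)-binding proteins and their partner proteins, 4 rose and 0 fell (2 and 4 on the table-read scale). Pabpc1, which links the poly(A) tail to eIF4G, had 1437 ± 122 FPKM with NP-D@M and 269 ± 25.5 FPKM with NP@M. Pabpc4 had 402 ± 35.9 FPKM with NP-D@M and 49.8 ± 1.22 FPKM with NP@M. Of 13 tested genes of mTORC1 and its translational arm, 3 rose and 8 fell (1 and 12 scaled). Tsc2, an inhibitor of mTORC1, had 28.2 ± 1.48 FPKM with NP-D@M and 5.06 ± 0.171 FPKM with NP@M, and Pdcd4, an inhibitor of eIF4A, 0.0159 ± 0.0275 FPKM with NP-D@M and 4.35 ± 0.4 FPKM with NP@M. Of 7 genes of the eIF2 phosphatase and the integrated stress response, 2 rose and 5 fell (1 and 6 scaled): Ppp1ca, a catalytic subunit of protein phosphatase 1, had 728 ± 23.6 FPKM with NP-D@M and 119.6 ± 8.56 FPKM with NP@M, and Atf4, the transcription factor translated when eIF2 is phosphorylated, 25 ± 3.17 FPKM with NP-D@M and 194 ± 10.9 FPKM with NP@M. Of 8 tested genes of hypusine and diphthamide synthesis, 4 rose and 4 fell (1 and 6 scaled). Dhps, the first enzyme of hypusine synthesis on eIF5A, had 68.3 ± 4.81 FPKM with NP-D@M and 5.84 ± 0.634 FPKM with NP@M. Its log2 change was 3.34, and 1.63 on the table-read scale. Of 9 tested mitochondrial translation factors, 6 rose and 3 fell (1 and 7 scaled), with Gfm1, a mitochondrial elongation factor, at 87.2 ± 11.1 FPKM with NP-D@M and 14.1 ± 0.134 FPKM with NP@M. With NP-D@MP against PBS the counts on the authors' scale were the same, except that all 6 genes of poly(A)-binding proteins and their partners rose.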

How the data were processed

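FPKM values of 12584 genes in 12 libraries were deposited by the authors in 1 table, with identifiers, coordinates and lengths; per the labels' protocols, libraries were made with an Illumina TruSeq kit from 1 ug of total RNA. Bowtie 0.12.2 and mm8 were used per the submitters' processing notes, but the coordinates in the table are those of GRCm38; the counter and strand setting are not given in the sources used here. Whole reads and the authors' library sizes were recovered from the steps in FPKM times length (relative tolerance 1e-06). Groups came from the sample titles. The main test was limma 3.58.1 (R 4.3.3) on log2(FPKM + 1), genes with at least 1 FPKM in at least 3 libraries, all 12 libraries in 1 fit, Benjamini-Hochberg adjusted over 10101 genes; fold changes on this scale understate those of low genes, and folds of means are ratios of mean FPKM. Ratios within a library were tested by exact permutation. The members, lists, pairs, promoter motifs and the bins by level were chosen with earlier results of these data known. Values in every library are given for 28 members fixed by name and for the 5 largest rises and falls of each comparison among called members without overlap; others are given by role. Alternatives were 3 other scalings, 2 other filters, 0.1 as pseudocount, trend and robust settings in limma, limma voom on recovered reads, only the libraries compared, a threshold of 0.01 and leaving out each library. Shares of 50-base words were counted in GENCODE transcripts. The main test was also run on simulated counts with known changes in a small part of the genes and with known library sizes. In these data most genes were called and the library size is in doubt, so that run cannot tell which scale holds.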

Additional observations from a re-analysis of the deposited data

How the results depend on the processing

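No paired analysis was possible because the titles number the libraries in a single series and the groups share no number. Counts of called members stayed within 1.5 times under a common median ratio, an unfiltered table, a filter at a mean of 5 FPKM, 0.1 as pseudocount, trend and robust settings, voom, the 6 libraries compared and a threshold of 0.01. For NP-D@M against NP@M, 27 members higher became 11 with quantile normalization and 11 on the table-read scale, and 29 lower became 44 on that scale; for NP-D@MP against PBS, 28 higher became 11 on either scale. Leaving out a library gave 26 to 27 higher and 27 to 29 lower for the first, 27 to 28 and 28 to 29 for the second, and 0 to 4 in each direction for NP-D@MP against NP-D@M, with 4 only without the third NP-D@M library.

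Of the members that rose, 17 and 16 were below 0 with quantile normalization and 12 and 14 on the table-read scale. Among the members whose values are given in every library, log2 changes that changed sign with quantile normalization were, NP-D@M against NP@M first and NP-D@MP against PBS second: Eef1a1 -0.99 and -0.92, Eef1b2 -0.89 and -0.85, Eef1g -0.51 and -0.58, Eef2 -0.87 and -0.98, Eif1 -1.88 and -2.12, Eif2ak4 0.21 and 0.24, Eif3f -0.14 and -0.035, Eif3h -0.46 and -0.49, Eif4ebp1 -0.48 and -0.84, Eif4g1 -0.47 and -0.57, Eif4g2 -0.080 and -0.013, Eif5 -1.42 and -1.19. On the table-read scale the sign changes among the same members were Eif1 -1.0 and -1.17, Eif2ak2 -0.76 and -0.91, Eif4ebp1 -0.093 and -0.30, Eif4g1 -0.21 and -0.26, Eif5 -1.47 and -1.37. By construction these scalings lower every gene of the libraries with D or force the libraries to 1 distribution.

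For the ratios, leaving out a library gave -0.11 to 0.048 for Eif4a1/Eif4a2, -0.063 to 1.03 for Eef1a1/Eef1a2 and -0.32 to -0.17 for Eif1/Eif1b, whose adjusted p became 0.0260 (exact permutation) without the second NP-D@M library (-0.32). Adding 1 FPKM in place of 0.5 reads gave 2.18 for Eef1a1/Eef1a2 (adjusted p = 0.00371), -0.03 for Eif4g1/Eif4g3 (0.738) and -0.40 for Eif3j1/Eif3j2 (0.205), by exact permutation. With 1 FPKM added, a ratio again depends on the library size. Eef1a2 had at most 0.857 FPKM in any library, so its ratio then mostly carries the change of Eef1a1 itself (log2 2.29 and 2.42). For the other pairs the cause was not tested. Members under about 1 FPKM with D, such as Eif2ak3, Eif4e2 and Eif3j1, rest on 0 to 46 reads in the libraries with D, which limits their precision.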

Other observations

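Across the 61 tested members, the change with NP-D@M against NP@M went with the level in PBS libraries on the authors' and the table-read scale, and the other way with quantile normalization. On the authors' scale, of 17 members with a PBS mean of at least 50 FPKM, 13 rose and 4 fell, against 83.6% and 13.8% of 506 genes at that level; 9 and 6 were called on the table-read scale (58.1% and 31.8% of those genes) and 1 and 13 with quantile normalization (28.5% and 51.4%). Of 25 members between 10 and 50 FPKM, 10 rose and 13 fell (54.3% and 38.6% of 2280 genes), and of 19 under 10 FPKM, 4 rose and 12 fell (35.0% and 52.8% of 7315 genes). Among the high members, those that fell were Eif4a1, Eif3a, Eif1a and Eif4h. Spearman's rho of the change with the PBS level was 0.42 over the members and 0.09 over all genes on the authors' scale, 0.32 and -0.089 on the table-read scale and -0.30 and -0.34 with quantile normalization. On the authors' scale it was, with gene length -0.18 and -0.32, and with GC content of the longest transcript 0.18 and 0.19; these are descriptions across genes, which share libraries and depth.

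The palindrome CACGTG, the core of the sequence bound by MYC and related factors, stood in the promoter windows of 12 of 50 members (24.0%) and of 8.09% of 27025 genes. Of the 12, on the authors' scale, 6 rose (Eef2, Eif1b, Eif3f, Eif3k, Eif4g1 and Eif5a). Another 5 fell (Eef2k, Eif3a, Eif4a1, Eif4e and Eif4h), and Eef1akmt4 was not called. On the table-read scale 4 were called higher and 8 lower, Eif1b and Eif4g1 among the lower. With quantile normalization 2 were called higher (Eif3k and Eif5a) and 7 lower. Of the 50 members with a window, 21 rose and 25 fell on the authors' scale. Of all genes tested, 41.8% rose and 47.7% fell on that scale (NP-D@M against NP@M). These shares were 17.5% and 70.5% on the table-read scale and 37.7% and 41.8% with quantile normalization. The motif TGATGNAA, on either strand, stood in 2 members (4.0%; 4.51% of genes), Eef2k, which fell, and Eif2s3x, which rose on the authors' scale. A match describes letters in a window and not a site in use.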
